A study of Drosophila melanogaster with 64 samples.

Results

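The genes described here are the nuclear genes for oxidative phosphorylation, the process by which mitochondria make ATP. They were taken by their gene symbols: every gene whose symbol starts with ND-, UQCR-, ATPsyn or COX followed by a digit, and SdhA, SdhB, SdhC and SdhD. This rule found 84 of the 17481 genes in the count table. Complex I had 40 of them, complex II 4, complex III 9, complex IV 16 and complex V 15. The rule used names only and no measured value.

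Oxidative phosphorylation runs on the respiratory chain of the inner mitochondrial membrane. Complex I takes electrons from NADH and complex II from succinate, complex III passes them to cytochrome c, and complex IV passes them on to oxygen. Complexes I, III and IV pump protons as they do so, and complex V, the ATP synthase, lets the protons back in to make ATP. All of the complexes but complex II combine nuclear subunits with subunits made from the mitochondrial genome, and neurons, photoreceptors and muscle depend heavily on their output.

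The samples were whole heads of male flies of the strain w[1118], Bloomington stock 5905, 20 heads per sample, so that brain, eyes, muscle and fat body were measured together. Flies were 3 d old when they received severe dTBI (a Drosophila traumatic brain injury) or a sham procedure, and heads were taken 1, 3, 6, 12 and 24 h and 3, 7, 10 and 15 d later. Uninjured flies aged 3 d were the control for time 0, so a sham fly at 15 d was also older than its control. Each group had 3 biological replicates, except 2 at 15 d, and none of the groups carried a transgene. Libraries were made on separate days: library day 1 held control, 24 h, 3 d, 7 d, 10 d and 15 d in 31 libraries, and library day 2 held control and 1 to 24 h in 33 libraries. The 9 RNAs of the control and 24 h groups were prepared on both days.

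Depth was 9.16 to 26.4 M counts per library on day 1 and 18.6 to 44.9 M on day 2. The mitochondrial genome took 10.3 to 15.6% of counts in the day 1 controls and 1.64 to 2.13% in sham heads at 15 d. In the day 2 controls it took 24.8, 18.1 and 14.5% in replicates 1 to 3. Counts were scaled within each library day. Normalised counts are given as CPM (counts scaled by TMM-normalised library size) and compared only within a day.

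Of the 84 genes, 17 have the symbol of another gene of the group followed by L, or L and a number, and are called paralog copies here. Levels between genes were compared per length, as TPM (transcripts scaled by exon length and by each library's total), in medians over the 64 libraries. The median TPM of the 67 other genes ran from 0 to 1543 with a median of 180, and 61 of them were at or over 1 TPM. These others include COX6AL, COX6AL2, COX6CL and ATPsynepsilonL. Their symbols also end in L, or L and a number, but the rest matches no gene of the group, and each lay under 1 TPM. The 17 copies ran from 0 to 37.8 TPM, and 11 of them lay under 1 TPM. COX7AL2, a copy of the small complex IV subunit gene COX7A, was the copy with the highest median TPM.

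Levels are given below as median TPM on each library day, since the order of genes changed between the days. The days also hold different times after injury, so preparation and age cannot be told apart in differences between these medians. ATPsynbeta, the catalytic subunit of the ATP synthase, and ATPsynC, whose protein forms its proton-carrying ring, had the highest levels in complex V on both days. ATPsynC was at 1941 TPM and ATPsynbeta at 1187 TPM on day 1, and on day 2 the order turned, with ATPsynbeta at 1910 and ATPsynC at 1206 TPM. ND-MLRQ had the highest level of complex I on both days, 1029 and 1704 TPM. The mammalian counterpart of ND-MLRQ was later reassigned to complex IV, and the gene is kept here with complex I by its name. The next complex I gene was ND-51, which binds NADH, on day 1 (519 TPM) and ND-49, a core subunit near the ubiquinone site, on day 2 (512 TPM).

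In complex II, SdhB, the iron-sulphur subunit, was highest on day 1 with 373 TPM and lowest on day 2 with 100.2 TPM. SdhA, the flavoprotein that binds succinate, was at 301 and 209.6 TPM, and SdhD, a membrane anchor, at 285 and 188 TPM. In complex III, UQCR-C1, a large core protein, was highest on day 1 with 598 TPM, followed by the small subunit UQCR-14 with 504 TPM, and UQCR-11 was lowest with 61.5 TPM among the genes that are not copies. On day 2 UQCR-14 was highest with 611 TPM, and the core protein UQCR-C2, at 359 TPM on day 1, was lowest with 46.5 TPM. COX7B, a small subunit, was the highest of complex IV on both days with 933 and 575 TPM, followed by COX6B on day 1 (905 TPM) and COX7A on day 2 (557 TPM). ND-B8 of complex I had at most 4 counts in any library, while ND-MNLL had no counts at all, and all of the exon bases of ND-MNLL are shared with CG45089 on the same strand in the Ensembl annotation. All exon bases of UQCR-14 lie opposite CG32576, and no source used here says whether counting was by strand, so reads of UQCR-14 and CG32576 may not have been told apart.

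**Figure D1:**
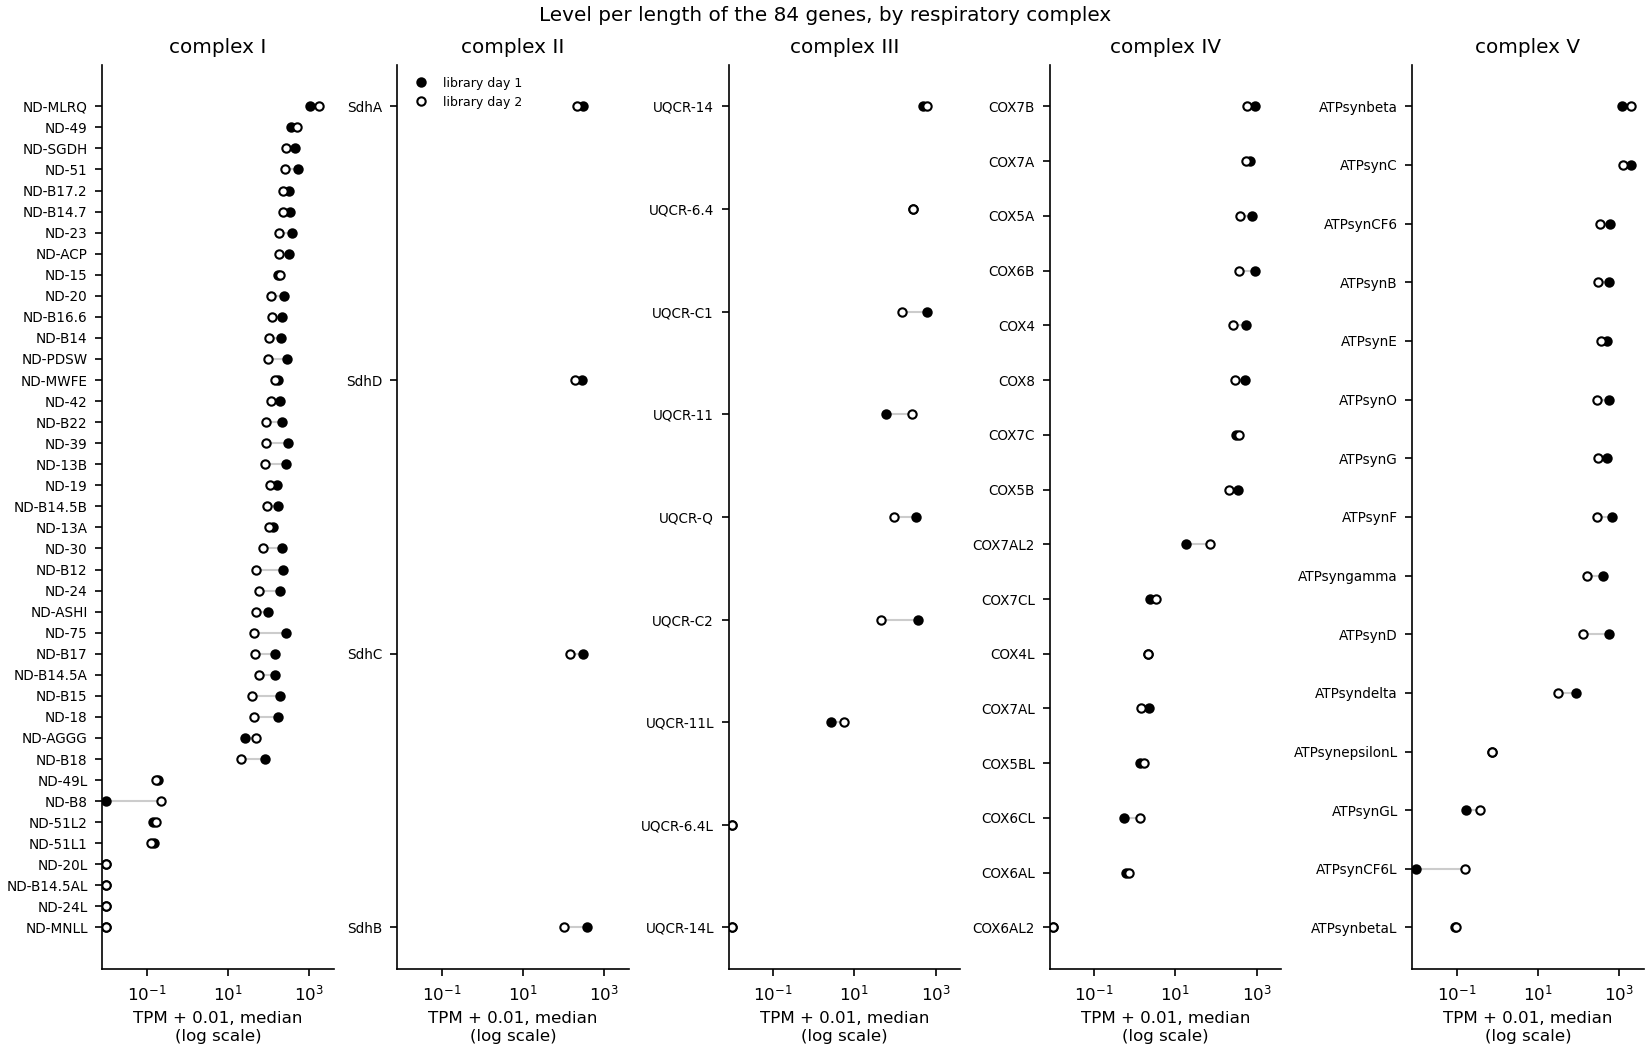
Median TPM (plus 0.01, log scale) of each of the 84 genes in the 31 libraries of library day 1 (filled) and the 33 of library day 2 (open), by respiratory complex and in order of level. Most genes other than paralog copies lie above 10 TPM and most copies under 1 TPM, with COX7AL2 at 37.8 TPM over all libraries.

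A gene was tested where its counts passed the filter on low counts, and it was called changed at an adjusted p under 0.05 in edgeR's quasi-likelihood test, with p adjusted over all genes tested. On library day 2, 69 of the 84 genes were tested among 10739, and on day 1, 67 among 10567. The genes tested on neither day were ND-B8, ND-MNLL, ND-20L, ND-24L, ND-49L, ND-51L1, ND-51L2, ND-B14.5AL, UQCR-14L, UQCR-6.4L, COX6AL, COX6AL2, ATPsynepsilonL, ATPsynCF6L and ATPsynGL. ATPsynbetaL and COX6CL passed on day 2 only.

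The first comparison follows sham flies from the uninjured control to 15 d on library day 1 and covers handling and age without injury. More than 40 of the 67 tested genes were lower than in the control at 7, 10 and 15 d, and 16 were lower at no time. None of the 67 genes was called by edgeR at 24 h, against 2.09% of all genes, while 16 had an unadjusted p under 0.05 and DESeq2 called 7. Without control replicate 3, 2 genes were called at 24 h, and without sham replicate 1, 4. The same RNAs of these groups prepared on day 2 gave 4 genes lower, so the data do not set a time at which the fall began. Then 24 were lower at 3 d (23.9% of all genes were called in either direction). The next times gave 46 at 7 d (29.3%), 47 at 10 d (37.9%) and, in the oldest flies, 50 at 15 d (35.3%). The share of all genes called lower was 13.6, 16.0, 18.6 and 17.9% at these 4 times. No gene of the group was called higher at any of them.

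The median log2 fold change of the 67 genes was -0.11, -0.21, -0.46, -0.46 and -0.53 for 24 h and 3, 7, 10 and 15 d. The median over all genes tested was 0.03, 0.01, 0.05 and 0.02 from 3 d to 15 d. The summed counts of the 84 genes took 1.53, 1.33 and 1.62% of nuclear gene counts in the 3 controls and 1.11% in both sham libraries at 15 d. In whole heads, fewer cells of a type and less RNA per cell cannot be told apart. These comparisons share the same 3 controls, so they are not independent of each other.

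The complexes differed in how many of their genes fell. In complex V all 11 tested genes were lower at 7, 10 and 15 d, and 8 of them also at 3 d. In complex I 23, 22 and 25 of 32 were lower at 7, 10 and 15 d. In complex III the 4 genes UQCR-11, UQCR-14, UQCR-6.4 and UQCR-Q, all small subunits, were lower at each of the 4 times. In complex IV 6, 7 and 8 of 13 were lower at 7, 10 and 15 d, and in complex II 2, 3 and 2 of 4. The 13 genes of complex IV include 5 paralog copies, while no copy was tested in complex V. In complex IV, 5 genes were lower at none of the 4 times. They were COX5A and the copies COX4L, COX5BL, COX7AL and COX7CL, whose median counts were 8.5 to 15. Whether one complex differed from another was not tested.

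UQCR-11 had the largest change among the genes called. It had 90.9, 99.998 and 82.8 CPM in the controls, 62.9, 57.0 and 55.4 in sham heads at 3 d, 41.2, 35.3 and 36.5 at 7 d, 34.3, 41.4 and 34.4 at 10 d, and 28.8 and 29.2 at 15 d. From 3 d on every sham library lay below every control. Among all genes tested, the groups did not overlap in 38.2, 38.9, 47.2 and 55.3% at 3, 7, 10 and 15 d. The log2 fold change at 15 d was -1.65 ± 0.14 (SE; edgeR adjusted p = 1.47e-08), a fall of 68.2%.

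UQCR-14 held 213, 190 and 209 CPM in the controls and 82.7 and 81.9 at 15 d, again without overlap. Its log2 fold change was -0.54 ± 0.09 at 3 d and -1.31 ± 0.10 at 15 d (edgeR adjusted p = 2.49e-04 and 3.7e-09). UQCR-Q and UQCR-6.4 were lower, with log2 fold changes of -0.73 ± 0.13 and -0.74 ± 0.14 at 15 d. The 2 core proteins of complex III were not called at any of these times. UQCR-C1 had 500, 377 and 561 CPM in the controls and 473 and 457 at 15 d, with the sham values inside the control range (edgeR adjusted p = 0.858). UQCR-C2 had 324, 274 and 377 in the controls and 282 and 276 at 15 d, and its sham values at 10 d were 189, 186 and 384, so that 1 library at 10 d lay above all 3 controls.

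In complex IV, the small subunits COX7A, COX7C and COX7B and the copy COX7AL2 fell most. COX7C went from 209, 180 and 197 CPM in the controls to 123, 87.9 and 103 at 7 d and 84.3 and 76.6 at 15 d. Every sham value at 7 and 15 d lay below the controls, with a log2 fold change of -1.28 ± 0.16 at 15 d (edgeR adjusted p = 3.71e-06). COX7A read 349, 434 and 297 in the controls and 173 and 184 at 15 d, a log2 fold change of -1.01 ± 0.15 (edgeR adjusted p = 2.22e-05). COX7AL2 read 16.8, 11.2 and 16.5 in the controls and 5.84 and 5.56 at 15 d, a log2 fold change of -1.38 ± 0.28 (edgeR adjusted p = 4.53e-04).

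COX4 and COX5B, nuclear subunits that contact the mitochondrially made core, were lower, with log2 fold changes of -0.69 ± 0.14 at 15 d and -0.74 ± 0.09 at 7 d. COX5A, their neighbour in the complex, read 277, 259 and 339 CPM in the controls and 237 and 270 at 15 d. Those groups overlapped, and the log2 fold change of COX5A was -0.20 ± 0.13 (edgeR adjusted p = 0.243).

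ATPsynbeta went from 1810, 1643 and 1923 CPM in the controls to 1306, 1383 and 1392 at 3 d and to 1219 and 1147 at 15 d, with no overlap at either time. Its log2 fold change was -0.62 ± 0.08 at 7 d (edgeR adjusted p = 8.19e-06). ATPsynC went from 2383, 2614 and 2237 to 1495 and 1394 at 15 d, a log2 fold change of -0.74 ± 0.11 (edgeR adjusted p = 2.33e-05). ATPsynB and ATPsynD, of the stalk that holds the enzyme head in place, were lower, with log2 fold changes of -0.79 ± 0.10 and -0.76 ± 0.09 at 15 d. ATPsyngamma, the rotor shaft, was lower, with a log2 fold change of -0.62 ± 0.17, although its control replicate 2, at 214, lay between the sham values of 218 and 183.

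In complex I the largest falls called at 15 d were those of the accessory subunits ND-MLRQ, ND-MWFE, ND-13A and ND-ACP. Other accessory subunits, among them ND-39, ND-B12 and ND-B14, were not called lower at 3, 7, 10 or 15 d. Whether accessory and core subunits differed was not tested. ND-MLRQ read 424, 426 and 361 CPM in the controls and 188 and 212 at 15 d, all sham values below the controls. Its log2 fold change was -1.01 ± 0.15 (edgeR adjusted p = 2.74e-05). ND-MWFE, ND-ACP (the mitochondrial acyl carrier protein) and ND-13A were lower, with log2 fold changes of -0.93 ± 0.12, -0.86 ± 0.09 and -0.89 ± 0.12. Among the core subunits, ND-49 was lower, with a log2 fold change of -0.78, a fall of 41.6%. The core subunits ND-20, ND-30, ND-23 and ND-24 were also lower, with log2 fold changes of -0.58, -0.51, -0.31 and -0.30. ND-75, a core subunit which carries iron-sulphur clusters, was lower, with a log2 fold change of -0.34 ± 0.12 (edgeR adjusted p = 0.0351). ND-51, which binds NADH, read 365, 277 and 408 in the controls and 430 and 395 at 15 d, overlapping groups with a log2 fold change of 0.24 ± 0.11 (edgeR adjusted p = 0.108).

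In complex II, SdhA read 465, 382 and 460 CPM in the controls and 370 and 358 at 15 d. These groups did not overlap, as in 55.3% of all genes. The log2 fold change of -0.26 ± 0.10 was just inside the threshold (edgeR adjusted p = 0.0471). SdhB was lower at 7 d, by -0.50 ± 0.13 (edgeR adjusted p = 0.00489), and was also called at 3 and 10 d but not at 15 d. SdhC was not called at any time. Over all complexes, 16 of the 67 tested genes were called lower at none of the 4 times: COX4L, COX5A, COX5BL, COX7AL, COX7CL, ND-39, ND-51, ND-AGGG, ND-B12, ND-B14, ND-B14.5A, ND-B15, SdhC, UQCR-11L, UQCR-C1 and UQCR-C2.

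**Figure D2:**
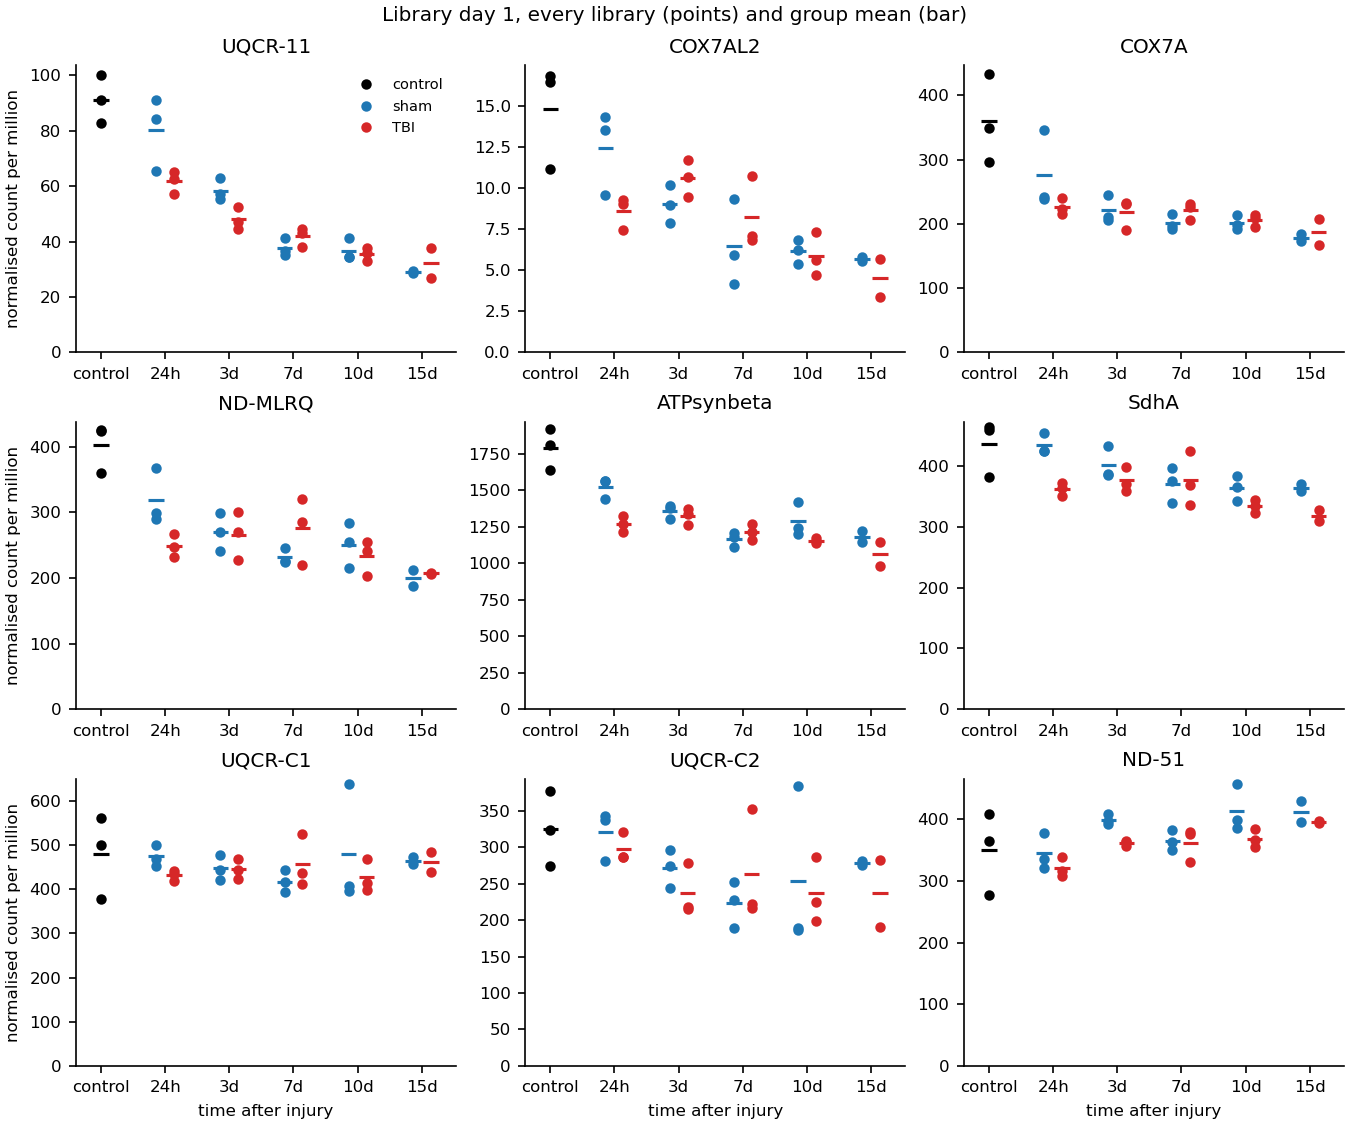
CPM (axis from 0) of 9 genes in each library of library day 1, as points, with group means as bars, for control (black), sham (blue) and TBI (red) from 24 h to 15 d. UQCR-11 falls from between 82.8 and 99.998 in the controls to 28.8 and 29.2 in sham heads at 15 d, while the sham values of UQCR-C1 and ND-51 at 15 d lie within or next to the control range.

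Leaving out each library in turn gave 17 to 22, 31 to 52, 35 to 50 and 37 to 54 genes for 3, 7, 10 and 15 d. With sham at 24 h as the reference in place of the control, a choice made after seeing the data, 0, 24, 33 and 42 of the 67 genes were lower for 3, 7, 10 and 15 d, against 0.293, 8.86, 19.8 and 20% of all genes called in either direction.

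Other mitochondrial gene lists moved beside these genes. Among all genes at 15 d, 17.9% were called lower and 17.5% higher. At 15 d, 4 of 9 further respiratory chain genes were lower, among them sun and blw, which encode the epsilon and alpha subunits of complex V, and Cyt-c-p, a cytochrome c. Their log2 fold changes were -1.03 ± 0.11, -0.74 ± 0.09 and -0.68 ± 0.12. In the list for the citric acid cycle and pyruvate oxidation, 10 of 14 genes were lower and 1 was higher. This list also holds Pdh, the gene of photoreceptor dehydrogenase, an eye enzyme outside these pathways. Idh3b and Idh3g, subunits of isocitrate dehydrogenase, and kdn, a citrate synthase, had log2 fold changes of -0.999 ± 0.07, -0.89 ± 0.09 and -0.80 ± 0.10. Among carriers 5 of 9 were lower, and sesB, the main ADP/ATP exchanger, went from 3426 ± 251 (SD, n = 3) to 1508 ± 131 (SD, n = 2) CPM.

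Of 71 mitochondrial ribosomal protein genes 16 were lower and 2 higher at 15 d, with a median log2 fold change of -0.10, where 17.9% of all genes were lower. Whether this list differed from the respiratory chain genes was not tested. Of 10 assembly factors 2 were lower and 1, Surf1, was higher. Of 11 genes of mitochondrial stress and redox 2 were lower and 1 higher. Of 7 genes tested in the list of regulators of mitochondrial biogenesis 1 was lower and 2 were higher. The latter list also holds tko, which encodes a mitochondrial ribosomal protein. Of the mRNAs of the mitochondrial genome 11 of 12 tested were lower at 7, 10 and 15 d, with median log2 fold changes of -3.63, -3.74 and -3.44.

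Markers of the cell types in a head also moved. At 15 d, when 17.9% of all genes were called lower and 17.5% higher, 9 of 10 genes of the neuron list were lower. This list also holds Syb, a synaptobrevin gene that is not restricted to neurons. The sums of the 10 genes ran from 8374 to 10700 plain CPM in the controls and from 6634 to 6649 in sham heads. The mitochondrial genome took unlike shares of the total in these groups, so the sums are not on the scale of the normalised counts. Of 15 muscle markers 8 were lower (4868 to 5336 against 4176 to 4525), and of 8 glia markers 2 were lower (2007 to 2138 against 1226 to 1668). Of 11 photoreceptor markers 5 were higher and 2 lower (54320 to 70710 against 91740 to 105100). For fat body 1 of 9 was higher and 1 lower, for hemocytes 1 higher and 2 lower of 7, and for male germline, of which 3 of 11 markers were tested, 1 higher and 1 lower. The part of cell make-up in the fall of the respiratory chain genes was not tested.

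On library day 2, sham heads were compared with controls within the first day. At 1, 3 and 6 h no gene of the 69 was called by edgeR, against 0.438, 0.363 and 3.12% of all genes, although 0, 47 and 30 of them had an unadjusted p under 0.05. DESeq2 called 0, 1 and 7. At 12 h 35 of 69 were lower, against 5.8% of all genes called in either direction and 3.31% called lower, and at 24 h 4 of 69 (1.28%, and 0.521% lower). The median log2 fold changes of the 69 genes were -0.13, -0.33, -0.28, -0.48 and -0.31 at 1, 3, 6, 12 and 24 h, with the median of all genes within 0.02 of 0.

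At 12 h, COX6B and COX7B of complex IV had log2 fold changes of -0.59 ± 0.12 and -0.56 ± 0.12 (edgeR adjusted p = 0.00395 and 0.0054). ATPsynB and ND-42, an accessory subunit of complex I, were lower with log2 fold changes of -0.69 ± 0.16 and -0.65 ± 0.17, though their groups overlapped. COX7B read 115, 171 and 154 CPM in the controls and 103, 104 and 91.6 in sham heads at 12 h. The groups did not overlap, as in 17.7% of all genes, but control replicate 1 stood next to the sham values. At 24 h the 4 genes called were ND-MLRQ, COX7B, COX5B and ATPsynE, with log2 fold changes of -0.49 ± 0.12, -0.49 ± 0.12, -0.47 ± 0.10 and -0.40 ± 0.10.

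These counts turned on the day 2 controls, which differed among themselves. The 84 genes took 0.963% of nuclear gene counts in control replicate 1, the library with 24.8% mitochondrial genome counts, and 1.51 and 1.28% in replicates 2 and 3. At 12 h the 35 genes became 59 without control replicate 1, 3 without control replicate 2 and 7 without control replicate 3. They became 11, 25 and 21 without sham replicates 1, 2 and 3. Without control replicate 1, 49, 40 and 42 genes were lower for 3, 6 and 24 h. Without control replicate 2 or 3, none was called at these 3 times. Without sham replicates 1, 2 and 3 at 24 h, 2, 0 and 0 were called. At 12 h, 6 of 16 muscle markers and 5 of 14 genes of the citric acid cycle list were lower too, against 3.31% of all genes. Muscle markers summed to 4194 to 4303 plain CPM in the controls and 2776 to 4278 in sham heads. The part of these in the result was not tested.

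**Figure D3:**
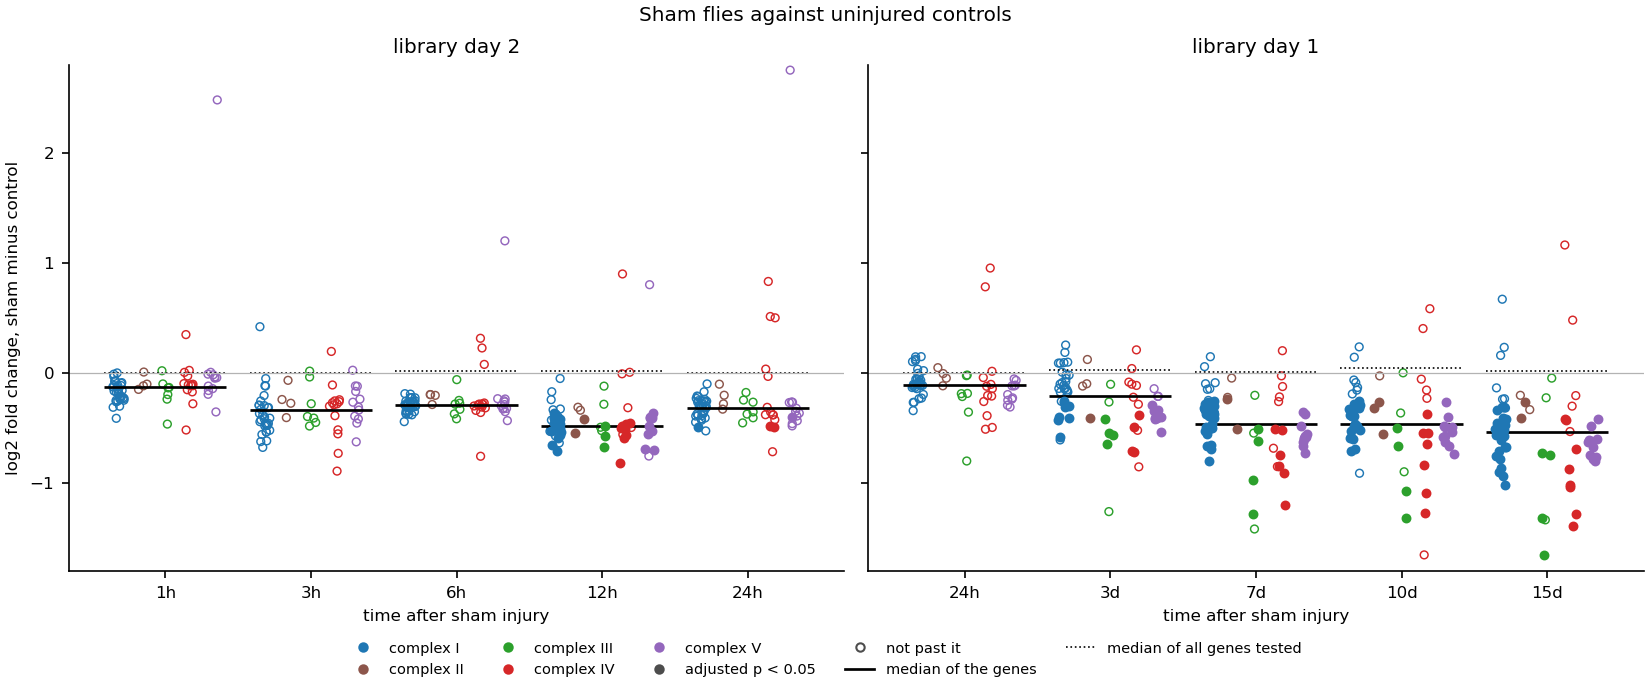
Log2 fold change of each tested gene, sham minus control, by time and respiratory complex (colour), on library day 2 (left) and day 1 (right); filled points have an adjusted p under 0.05, the solid bar is the median of the genes and the dotted bar that of all genes tested. The solid bar moves from -0.11 at 24 h to -0.53 at 15 d on day 1, and the filled points are all below 0.

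The injury was compared with the sham procedure at each time. Few respiratory chain genes were called, and their share in either direction was below that of all genes at each time. On library day 2, 1, 4, 2, 1 and 1 of 69 were called for 1, 3, 6, 12 and 24 h, against 7.39, 16.5, 12.1, 8.62 and 8.4% of all genes. On day 1, 9 of 67, or 13.4%, were called at 24 h against 15% of all genes, and none at 3, 7, 10 and 15 d against 1.35, 0.227, 0.473 and 0.0379%. At these 4 times 1, 2, 3 and 1 genes had an unadjusted p under 0.05, and DESeq2 called 0, 0, 1 and 0.

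The 9 genes at 24 h on day 1 were all lower in injured heads and came from each complex. In that direction their 13.4% stood above the 7.41% of all genes called lower. They were ND-49, ND-SGDH, ND-B17.2, SdhA, UQCR-14, UQCR-11, COX5B, ATPsynbeta and ATPsynC. ATPsynbeta read 1562, 1439 and 1568 CPM in sham and 1216, 1270 and 1322 in TBI heads. All 3 TBI values lay below the sham values, and the log2 fold change was -0.26 ± 0.08 (edgeR adjusted p = 0.0341).

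SdhA read 454, 425 and 425 in sham and 363, 372 and 351 in TBI heads, with a log2 fold change of -0.27 ± 0.09 (edgeR adjusted p = 0.0463). ND-SGDH, an accessory subunit of complex I, read 210, 185 and 201 in sham and 165, 164 and 164 in TBI heads, with -0.27 ± 0.06 (edgeR adjusted p = 0.00449). For both genes every TBI value lay below every sham value. Among all genes tested, the groups did not overlap in 34.3% in this comparison. UQCR-11 had the largest change of the 9, -0.38 ± 0.12.

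The same RNAs prepared on day 2 gave values for these 9 genes of -0.19 to -0.30. There ATPsynbeta had a log2 fold change of -0.26 ± 0.11 (edgeR adjusted p = 0.154), SdhA -0.30 ± 0.11 (0.083), ND-B17.2 -0.19 ± 0.13 (0.442) and ND-SGDH -0.23 ± 0.14 (0.382), none of them called. The gene called on day 2 was the copy COX7AL2, at 28.8, 25.1 and 24.2 in sham and 19.0, 15.7 and 14.8 in TBI heads, a log2 fold change of -0.66 ± 0.20 (edgeR adjusted p = 0.0386). On day 1 the 9 genes became 1 without sham replicate 1, and leaving out TBI replicates 1, 2 and 3 gave 2, 3 and 1. On day 2 the 1 gene was called without sham replicate 2 or TBI replicate 1 and no gene was called without any other library.

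Beside the 9 genes on day 1, none of the citric acid cycle and pyruvate list or of the carriers was higher. Of that list, which holds Pdh, 8 of 14 genes were lower, and of the carriers 3 of 9. The citrate synthase gene kdn, with a log2 fold change of -0.46 ± 0.09, and Mpcp2, a phosphate carrier, with -0.40 ± 0.08, were among them. Of the mRNAs of the mitochondrial genome 7 of 12 were lower. Among all genes tested there, 7.41% were called lower and 7.61% higher. Of the 10 genes of the neuron list, which holds Syb, 7 were lower and 1 was higher. They summed to 7661 to 10070 plain CPM in sham and 6604 to 7250 in TBI heads. Muscle markers summed to 4720 to 4981 plain CPM in sham and 5356 to 6636 in TBI heads, with 2 of 15 higher and 1 lower. The mitochondrial ribosomal protein genes summed to 1101 to 1243 and 1259 to 1359 plain CPM, with 0 of 71 called by edgeR and 4 at an unadjusted p under 0.05. The part of these in the result was not tested.

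At 6 h the injured heads lay below sham in most genes without passing the test. The median log2 fold change of the 69 genes was -0.26, and in 40 of 69 the groups did not overlap, against 24.9% of all genes (12.1% called). Without the copies, 0 of 62 genes were called and 14 had an unadjusted p under 0.05. ND-15 was nearest to the threshold, with 105, 103 and 99.5 CPM in sham and 85.6, 88.7 and 83.0 in TBI heads, a log2 fold change of -0.26 ± 0.09 (edgeR adjusted p = 0.0504). At 12 h ND-15, an accessory subunit of complex I, was the gene called: 109, 106 and 94.9 in sham and 79.0, 82.6 and 86.8 in TBI heads, without overlap, with a log2 fold change of -0.32 ± 0.09 (edgeR adjusted p = 0.016).

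At 12 h the median log2 fold change was -0.21, and in 28 of 69 genes the groups did not overlap (25.4% of all genes). Sham replicate 3 at 12 h lay nearer to the TBI heads in several genes: ATPsynbeta read 2133, 2123 and 1479 in sham and 1663, 1710 and 1978 in TBI. That library held 11.2% mitochondrial genome counts, against 19.3 and 15.5% in the other sham libraries. Without it, 2 genes were called at 12 h. Without TBI replicate 3 there were 3, and without any other library of the comparison there was none.

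At 3 h UQCR-11 was lower in injured heads, with 237, 192 and 239 CPM in sham and 154, 183 and 165 in TBI. No TBI value reached the sham range, where 28.5% of all genes had groups that did not overlap. The log2 fold change of UQCR-11 was -0.41 ± 0.12 (edgeR adjusted p = 0.0168). ATPsynE, a small membrane subunit of complex V, was lower, with a log2 fold change of -0.28 ± 0.10 (edgeR adjusted p = 0.0458), with 123, 131 and 137 in sham and 110, 103 and 109 in TBI heads. The median of the 69 genes at 3 h was 0.06. The 4 genes called at 3 h became 2, 3 and 0 without TBI replicates 1, 2 and 3 and 1 without each sham replicate.

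The genes called higher at 1 to 6 h were copies with few counts. COX7CL, a copy of COX7C, had 15, 10 and 17 counts in the sham libraries and 31, 28 and 15 in the TBI libraries at 1 h, 15, 6 and 12 against 20, 14 and 41 at 3 h, and 9, 8 and 18 against 25, 22 and 16 at 6 h. On the normalised scale the groups did not overlap at any of these times, and the log2 fold changes were 1.20 ± 0.35, 1.12 ± 0.36 and 1.24 ± 0.36 (edgeR adjusted p = 0.0308, 0.0315 and 0.0221). Without any one library other than TBI replicate 3, no gene was called at 1 h.

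ATPsynbetaL, a copy of ATPsynbeta, had 0, 0 and 1 counts in sham and 0, 1 and 20 in TBI libraries at 3 h, so that its call there (edgeR adjusted p = 0.031) rested on TBI replicate 3. At 6 h it had 0, 1 and 2 counts in sham and 12, 12 and 5 in TBI libraries, without overlap on the normalised scale (edgeR adjusted p = 0.0132). A gene this low passes the filter through the libraries where it is high, so these calls say less than those of other genes. The 2 genes called at 6 h became 1, 0 and 2 without TBI replicates 1, 2 and 3 and 1, 1 and 2 without sham replicates 1, 2 and 3.

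A set of 13 subunits, core and accessory, was followed at each time whatever the test: ND-75, ND-51, ND-42, SdhA, SdhB, UQCR-C1, UQCR-C2, COX4, COX5A, COX5B, ATPsynbeta, ATPsyngamma and ATPsynC. Their log2 fold changes, TBI minus sham, spanned -0.16 to 0.10 at 1 h and -0.10 to 0.42 at 3 h. The later spans were -0.46 to 0.00 at 6 h and -0.29 to -0.10 at 12 h. At 24 h they ran from -0.42 to -0.18 on day 2 and from -0.31 to 0.06 on day 1. At 3, 7, 10 and 15 d they lay between -0.24 and 0.26. ND-75 was the highest of them at 3 h, with 0.42, and the lowest at 6 h, with -0.46, and was called at neither.

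A joint test asked, for each library day, if the 5 times had unlike injury effects. None of the 69 genes passed on day 2 and none of the 67 on day 1 in edgeR's test, against 3.68 and 0.407% of all genes, and 0 and 5 had an unadjusted p under 0.05. DESeq2's likelihood ratio test called 0 and 2.

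**Figure D4:**
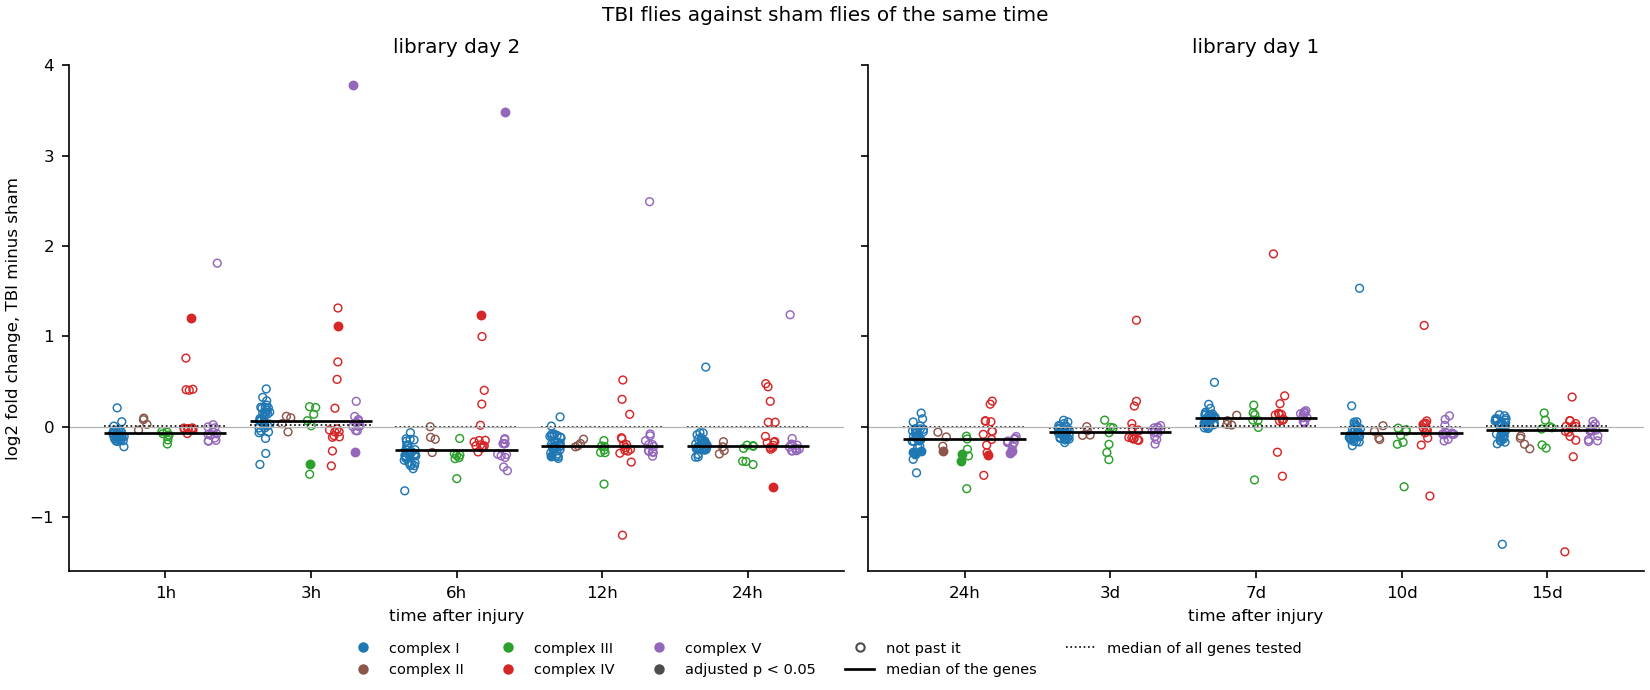
Log2 fold change of each tested gene, TBI minus sham, by time and respiratory complex (colour), on library day 2 (left) and day 1 (right); filled points have an adjusted p under 0.05, the solid bar is the median of the genes and the dotted bar that of all genes tested. The median of the genes lies at -0.26 at 6 h and -0.14 at 24 h on day 1, and the high filled points at 3 and 6 h are the low-count copies ATPsynbetaL and COX7CL.

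The 9 RNAs prepared on both library days show how far the level of these genes depended on the preparation. With each RNA as its own control, 60 of 69 genes differed between the days, 51 lower and 9 higher on day 2, where 65.2% of all genes were called. The share of all genes called lower was 31.5%. The median log2 fold change was -0.68 for the 69 genes and 0.04 for all genes. These differences are larger than most of those between the groups. Outside these 9 RNAs no test therefore compared groups across days, and the median TPM of each day is description only.

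UQCR-C2 differed most, with 281 ± 32.3 (SD, n = 9) CPM on day 1 and 43.7 ± 12.2 on day 2, scaled over these 18 libraries, and it was lower on day 2 in 9 of 9 RNAs (log2 fold change -2.72 ± 0.11). ND-75 went from 321 ± 34.0 to 66.3 ± 20.1, and SdhB from 218 ± 22.4 to 60.8 ± 10.4, each lower in 9 of 9. UQCR-11 and COX7AL2 went the other way, from 69.2 ± 12.5 to 203 ± 40.9 and from 10.7 ± 3.01 to 30.8 ± 13.1, higher in 9 of 9. ATPsynbeta was also higher on day 2, by 0.72 ± 0.06 on the log2 scale. Genes of one complex therefore moved in opposite directions between the days. By complex, 27 of 32 genes of complex I, 4 of 4 of complex II and 3 of 7 of complex III were lower on day 2. In complex IV 7 of 15 were lower, and in complex V 10 of 11. The complex IV genes not lower were COX7C and genes with symbols ending in L or L and a number. Of the latter, all but COX7AL2 had means of at most 1.16 CPM.

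**Figure D5:**
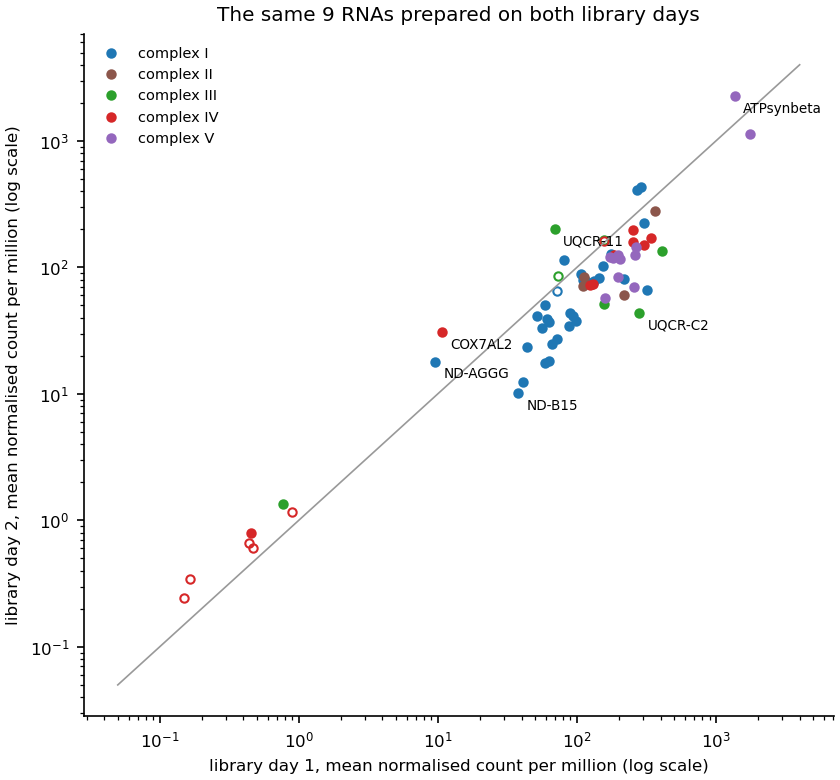
Mean CPM (both axes log scale) of each tested gene in the same 9 RNAs prepared on library day 1 (horizontal) and day 2 (vertical), coloured by respiratory complex, filled where the adjusted p is under 0.05; the line marks equal levels. UQCR-C2 lies far below the line, at 281 against 43.7, and UQCR-11 above it, at 69.2 against 203.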

How the data were processed

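RNA from whole heads was made into libraries with a stranded Illumina TruSeq kit and sequenced on an Illumina NextSeq, per the labels' protocols. The authors deposited raw counts per gene for 64 libraries in 1 table. The submitters' processing notes name FastQC, MultiQC, HISAT2, Picard, HTSeq and DESeq2 without versions, and no source used here gives the genome build or says whether counting was by strand. The table's 5 categories of reads not assigned to a gene were left out of library sizes and tests. No 2 libraries held identical counts for the 84 genes.

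Gene identifiers were matched to symbols in a table of gene names, for 17343 of 17481, and an Ensembl annotation gave exon lengths for TPM. The counts were fitted per library day in edgeR 4.0.16 (R 4.3.3): filterByExpr, TMM factors, 1 model of 11 groups, robust quasi-likelihood F tests and Benjamini-Hochberg adjustment over all genes tested at a threshold of 0.05. The biological coefficient of variation was 0.161 on day 1 and 0.167 on day 2. The library day was tested in the 9 RNAs prepared on both days with the RNA as a block. Alternatives were DESeq2 1.42.0, other scalings, no filter, a replicate block and leaving out each library. The model was tested on simulated data.

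The genes named are up to 4 per complex and comparison with the largest change among those called. Also named are 13 subunits followed throughout, the highest levels per complex, and genes failing the filter. Others were picked after their values were seen to show spread, among them UQCR-C1, ND-51 and COX5A at 15 d. The members and lists were chosen with earlier results of these data known. The labels describe 55 RNAs where the series text counts 52. No sequence is shown.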

Additional observations from a re-analysis of the deposited data

How the results depend on the processing

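The counts of genes lower in sham heads at 7, 10 and 15 d stayed within 1.5 times of those reported with DESeq2, with RLE size factors, without a filter, under scaling without the mitochondrial genome and the replicate block. With sham at 24 h as the reference, chosen after seeing the data, the count was 0 at 3 d and 24 at 7 d. RLE size factors gave 4 genes for TBI against sham at 6 h and 1 for sham at 24 h on day 1. Without a filter TBI against sham gave 0, 4 and 2 genes for 1 h, 6 h and 24 h (day 1). DESeq2 gave 6, 2 and 6 for TBI against sham at 6, 12 and 24 h on day 2, and 1 for 10 d. For sham against control it gave 1, 7 and 11 for 3, 6 and 24 h on day 2 and 7 for 24 h on day 1, and its joint test gave 2 on day 1. Scaling without the mitochondrial genome gave 2 for TBI at 12 h and 1 for sham at 24 h on day 1. The cause of these changes was not tested.

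Leaving out 1 library at a time, sham against control gave 0 to 49, 0 to 40, 3 to 59 and 0 to 42 genes for 3, 6, 12 and 24 h on day 2 and 0 to 4 for 24 h on day 1. TBI against sham gave 0 to 1, 0 to 3, 0 to 2, 0 to 3 and 0 to 1 for 1, 3, 6, 12 and 24 h on day 2 and 1 to 9 for 24 h on day 1. The library day gave 55 to 62. No named gene's value changed sign past the threshold under any alternative run. With 2 libraries per group at 15 d, differences there rest on few samples.

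Same-numbered sham and TBI samples were checked for pairing: 24 of 29 pairs had a correlation over 0.1 (range -0.19 to 0.70). Pairing was to be taken only if every pair passed 0.1, and the labels name no shared source, so the block was not used. That 24 of 29 correlated best with their own number is a hint from the data of some pairing. The 29 are not independent, since the 24 h RNAs count on both library days and both pairs at 15 d hold the same value, 0.207. The replicate block gave 1 gene for sham at 24 h on day 2 in place of 4, 30 in place of 35 at 12 h, and 10 in place of 9 for TBI at 24 h on day 1.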

Other observations

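Of the genes listed as regulators of mitochondrial biogenesis, srl and foxo were called in injured heads at 3 and 6 h, in opposite directions. At 3 h srl, the fly counterpart of the coactivator PGC-1, was higher in TBI than in sham heads by 0.96 ± 0.17 on the log2 scale (edgeR adjusted p = 2.12e-04), with 47.5 ± 8.77 against 24.4 ± 3.12 CPM (SD, n = 3 each). At 6 h srl was higher by 0.71 ± 0.17 (edgeR adjusted p = 0.0059). The transcription factor gene foxo was lower, with log2 fold changes of -0.97 ± 0.18 at 3 h and -0.74 ± 0.18 at 6 h (edgeR adjusted p = 2.21e-04 and 0.00473). These were 2 of the 7 genes of that list tested, where 16.5% of all genes were called at 3 h and 12.1% at 6 h. Whether the list differed from all genes was not tested.

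In sham heads at 15 d, srl was higher than in the control by 0.71 ± 0.18 and foxo lower, with a log2 fold change of -0.53 ± 0.18 (edgeR adjusted p = 0.00326 and 0.026), and Ets97D was higher by 0.73 ± 0.16.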
